A study of Mus musculus with 7 samples.

Results

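The clock genes of the Dbp and Per arm are 10 genes (Dbp, Tef, Hlf, Per1, Per2, Per3, Nr1d1, Nr1d2, Ciart and Bhlhe41) of the 51426 genes listed for mouse liver. They were chosen by name, by matching the gene symbol in the deposited tables, and with the difference between genotypes in these same livers already known. For that reason their differences between TET1 KO and WT livers are given as a description, and the calls among them, taken from fits over all genes, only as counts that support nothing. All 10 passed the filter on low counts, as did 14754 genes in all, and the lowest count of any of them in any library was 27.

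Livers came from male mice, 3 WT and 4 with a whole body knockout of Tet1 (TET1 KO). The labels give the strain of all 7 as C57BL/6J, while the study's methods name the knockout line B6;129S4-Tet1tm1.1Jae/J, a mixed background. Every mouse had been fed a high-fat diet (HFD) for 16 weeks from 8 weeks of age, per the study's methods. The WT mice were littermates according to the study, and the deletion is carried by all cells of the TET1 KO mice, so an effect arising in the liver and one arising in another tissue cannot be told apart. No chow-fed mice were analysed here, and the labels give no time of day at which the livers were collected. Poly(A) or rRNA-depleted RNA was sequenced, and the authors counted the reads on each gene.

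The circadian clock of the liver is a feedback loop. CLOCK and BMAL1 (encoded by Arntl) bind E-boxes and switch on the Per, Cry, Nr1d and Dbp genes, and the PER and CRY proteins then inhibit CLOCK and BMAL1, while the NR1D proteins repress Arntl. DBP, TEF and HLF are PAR bZIP transcription factors that bind D-boxes and carry the rhythm to metabolic genes of the liver, and the mRNAs of most of these genes rise and fall over the day.

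Promoters, taken as the 300 bases from 250 before to 50 after a gene start in RefSeq (GRCm38.p6), were found for 9 of the 10 genes, with 11 start sites among them. Each was searched on both strands for the E-box (CACGTG), the E-prime box (CACGTT), the D-box (TTATGTAA or TTACGTAA), the cyclic AMP response element or CRE (TGACGTCA), the ROR element (TAGGTCA) and the GC box (GGGCGG), none of which shared a base with another in the matches described here. An E-box stood in the promoters of 4 of the 9 genes, Tef, Per1, Ciart and Bhlhe41. These were 5 of the 11 promoters, against 7.15% of all 32851 promoters of this length. The GC box was found for 8 of the 9 genes, in 10 of the 11 promoters, and in 35.7% of all promoters. No ROR element was found for any of the 9. The GC content of the 11 promoters was 56.3% to 73.3%, beside a median of 52.7% for all promoters. Its part in the matches was not tested. A match is a run of letters and not a bound site. The promoters below are shown because they are those of the set that hold an E-box, an E-prime box or a D-box, with those motifs in capitals and the rest in lower case, 5′ to 3′ on the strand of the gene.
Ciart, chr3:95882179-95882478, minus strand: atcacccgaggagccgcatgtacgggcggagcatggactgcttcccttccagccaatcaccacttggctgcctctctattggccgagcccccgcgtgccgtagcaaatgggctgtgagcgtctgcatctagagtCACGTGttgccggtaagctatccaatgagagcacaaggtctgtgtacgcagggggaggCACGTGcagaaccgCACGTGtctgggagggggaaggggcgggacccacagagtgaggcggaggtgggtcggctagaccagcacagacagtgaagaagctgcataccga
Bhlhe41, chr6:145865371-145865670, minus strand: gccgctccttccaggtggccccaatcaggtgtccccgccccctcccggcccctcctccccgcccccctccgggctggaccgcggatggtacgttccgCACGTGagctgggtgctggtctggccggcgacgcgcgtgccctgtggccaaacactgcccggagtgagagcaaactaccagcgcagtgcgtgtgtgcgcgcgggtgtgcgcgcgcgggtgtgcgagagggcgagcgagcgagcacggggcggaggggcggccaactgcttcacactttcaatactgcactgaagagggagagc
Tef, chr15:81802423-81802722, plus strand: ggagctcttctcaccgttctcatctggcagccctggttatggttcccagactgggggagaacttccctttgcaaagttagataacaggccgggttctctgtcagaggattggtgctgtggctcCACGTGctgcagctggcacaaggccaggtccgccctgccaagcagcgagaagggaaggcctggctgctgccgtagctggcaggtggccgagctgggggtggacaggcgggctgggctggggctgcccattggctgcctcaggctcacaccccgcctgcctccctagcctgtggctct
Tef, other start, chr15:81811164-81811463, plus strand: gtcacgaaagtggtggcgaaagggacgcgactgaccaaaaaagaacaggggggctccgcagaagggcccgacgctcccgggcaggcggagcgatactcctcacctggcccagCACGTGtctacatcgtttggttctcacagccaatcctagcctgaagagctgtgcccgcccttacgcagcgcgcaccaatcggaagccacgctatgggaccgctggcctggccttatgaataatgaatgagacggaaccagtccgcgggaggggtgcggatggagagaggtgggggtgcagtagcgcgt
Per1, chr11:69098699-69098998, plus strand: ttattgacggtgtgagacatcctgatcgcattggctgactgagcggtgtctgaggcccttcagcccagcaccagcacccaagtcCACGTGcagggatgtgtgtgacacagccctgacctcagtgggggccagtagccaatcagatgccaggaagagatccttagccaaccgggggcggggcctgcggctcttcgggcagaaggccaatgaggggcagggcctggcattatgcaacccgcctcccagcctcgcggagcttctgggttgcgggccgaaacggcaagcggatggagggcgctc
Per3, chr4:151044616-151044915, minus strand: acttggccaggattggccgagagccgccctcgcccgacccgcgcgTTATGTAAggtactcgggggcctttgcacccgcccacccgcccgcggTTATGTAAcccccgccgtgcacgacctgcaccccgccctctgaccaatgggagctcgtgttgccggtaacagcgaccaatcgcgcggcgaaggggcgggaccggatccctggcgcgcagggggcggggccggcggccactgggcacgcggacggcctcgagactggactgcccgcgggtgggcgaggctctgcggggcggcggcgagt
Nr1d1, chr11:98775328-98775627, minus strand: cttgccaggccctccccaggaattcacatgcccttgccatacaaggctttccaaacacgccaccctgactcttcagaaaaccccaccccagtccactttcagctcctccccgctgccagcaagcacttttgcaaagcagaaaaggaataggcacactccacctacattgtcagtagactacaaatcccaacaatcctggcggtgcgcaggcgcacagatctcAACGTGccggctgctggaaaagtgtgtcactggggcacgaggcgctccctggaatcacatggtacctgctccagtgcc

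The capitals mark E-boxes in the Ciart, Bhlhe41, Tef and Per1 promoters, D-boxes in the Per3 promoter, and in the Nr1d1 promoter the E-prime box on the other strand, which reads AACGTG here. Positions are counted from the gene start, with the first of the last 50 bases as 1 and the base before it as -1. Ciart held 3 E-boxes, beginning at -116, -58 and -44, and 2 or more E-boxes were found in 0.594% of all promoters. Bhlhe41 had 1, at -153, and each of the 2 start sites of Tef had 1, at -127 and -138. Per3 held 2 D-boxes, beginning at -205 and -158, which is a number reached by 0.0244% of all promoters, while at least 1 D-box was found in 1.06%. The E-prime box of Nr1d1 began at -28 and is shared by 4.68% of all promoters, and a CRE beginning at -9 in the Hlf promoter is found in 1.79%. The first of the 2 start sites of Per1 held an E-box at -166. In the Dbp and Nr1d2 windows the GC box was the single motif of this set to be found.

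The libraries held between 15005277 and 22746138 counts, so that 1 count was worth 0.0440 to 0.0666 CPM (the count scaled to library size) before TMM normalization, and levels below are CPM after it. Tet1 itself had 1, 4 and 1 counts in WT livers and 2, 1, 4 and 1 counts in TET1 KO livers and cannot check the labels at this depth, while Tet2 and Tet3 had log2 fold changes of -0.01 (SE 0.23) and 0.32 (SE 0.16), and adjusted p of 0.984 and 0.223 by the quasi-likelihood test of edgeR. Hepatocyte markers were abundant in all livers, with summed levels of 72200 to 93277 CPM in WT and 83835 to 94405 CPM in TET1 KO. Of the other cell types, the summed level of 6 cholangiocyte markers was higher in every TET1 KO liver (46.2 to 68.0 CPM) than in any WT liver (29.7 to 37.9 CPM). Of 5 tested markers, 3 did not overlap between the groups, higher, beside 11.7% of all tested genes. The most abundant of the 6 had a mean of 24.4 CPM in WT and 36.5 CPM in TET1 KO livers. The summed level of 6 endothelial markers was lower (118 to 141 CPM against 143 to 145 CPM), but taken singly all 6 overlapped between the groups. The summed markers of Kupffer cells and macrophages, stellate cells, T and NK cells and adipocytes overlapped between the groups. Cholangiocyte Krt19 stood highest in TET1 KO replicate 4, at 6.68 CPM. The adipocyte genes Adipoq and Plin1 reached 4.23 and 4.93 CPM in TET1 KO replicate 2 and at most 0.373 and 0.166 CPM elsewhere. The part of these cells in the values below was not tested. In bulk liver, fewer cells of a type and less RNA per cell cannot be told apart.

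Over all 14754 genes, edgeR's quasi-likelihood test found 298 genes past the threshold, a p under 0.05 after Benjamini-Hochberg adjustment (2.02%), with 129 higher (0.874%) and 169 lower (1.15%) in TET1 KO livers. An unadjusted p under 0.05 was reached by 3876 genes (26.3%), the share to set beside such counts in the lists below. With scaling by library size only, the split moved to 107 higher and 312 lower. Of the 10 clock genes, 4 were called higher (Dbp, Tef, Per3 and Bhlhe41), and none lower, where none had an unadjusted p under 0.05 with a lower level and DESeq2 called none lower either. DESeq2 called 6 of the 10 higher, adding Per2 and Ciart, against 4.27% of genes called higher and 4.75% called lower by that test over all genes. These shares, like those of edgeR above, are also the ones to set beside calls in the lists below. The groups did not overlap, with every TET1 KO liver above every WT liver, for 5 of the 10, a state shared by 11.7% of all tested genes (10.8% for the opposite order). The count of 4 became 0 without WT replicate 2, 1 without WT replicate 3 or TET1 KO replicate 3, and 2 without TET1 KO replicate 1 or 2. It became 3 without WT replicate 1 and 5 without TET1 KO replicate 4. With scaling by library size only it was 3, where Dbp lost its call (adjusted p = 0.0543 by edgeR). Over 14 alternative settings the call held in 13 for Per3, 10 for Tef and 8 each for Dbp and Bhlhe41. In the 7 that left out a mouse it held in 6 for Per3, 3 for Tef, 2 for Dbp and 1 for Bhlhe41. The fitted log2 fold changes of all 10 were above 0, with a median of 0.85 beside 0.01 for all genes. These counts follow from how the genes were chosen.

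**Figure D1:**
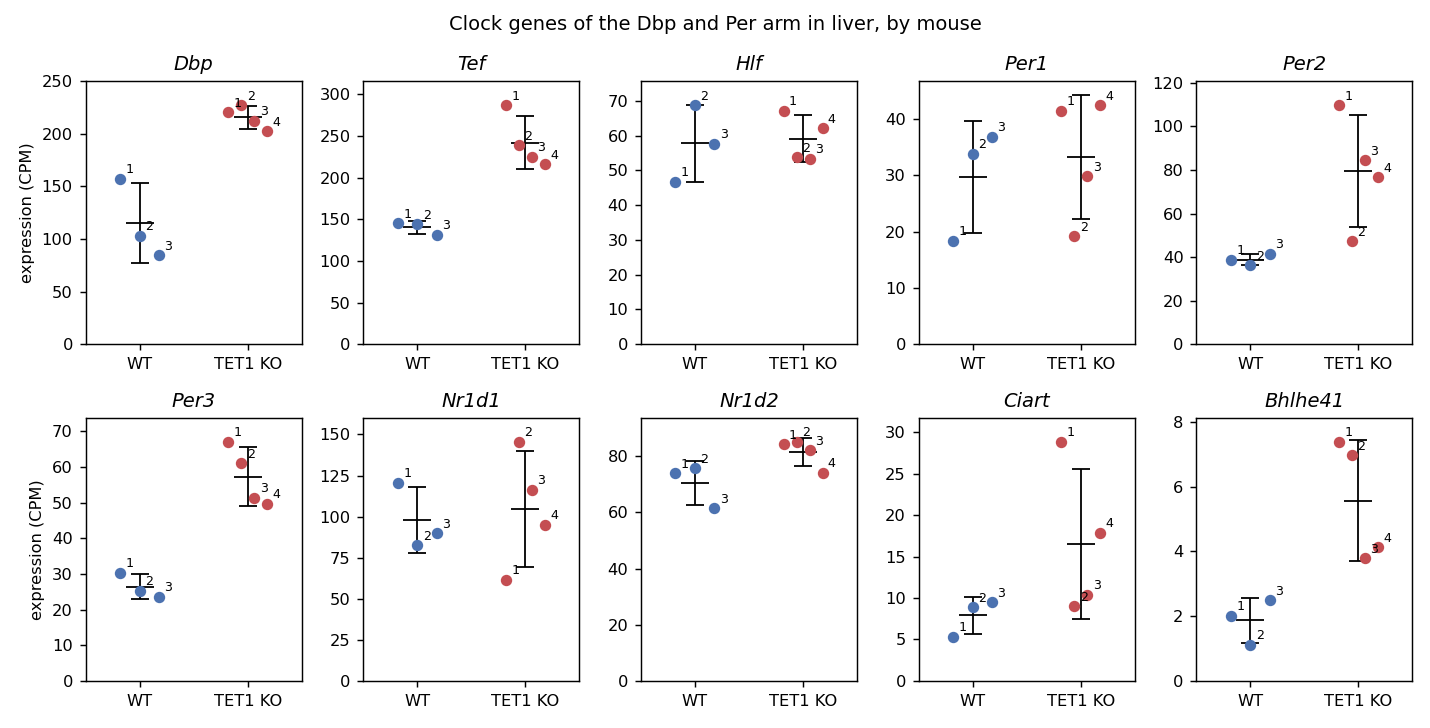
Expression in CPM after TMM scaling (linear axis from 0) of the 10 clock genes in 3 WT and 4 TET1 KO livers, with 1 numbered point per mouse and the mean and SD in black. Every TET1 KO liver lies above every WT liver for Dbp, Tef, Per2, Per3 and Bhlhe41, and the groups overlap for the other 5 genes.

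Of the PAR bZIP factors, Dbp and Tef were higher in TET1 KO livers and Hlf was not. Dbp (ENSMUSG00000059824, chr7:45705100-45710203 of GRCm38.p6, plus strand), the D-box activator for which the family is best known in liver, stood at 157, 103 and 84.7 CPM in WT livers and at 221, 227, 212 and 202 CPM in TET1 KO livers. The TET1 KO livers were close together and all above the WT livers, which were spread out. The means were 115 ± 37.8 CPM (SD, n = 3) and 216 ± 10.8 CPM (SD, n = 4), 1.87-fold apart, with a fitted log2 fold change of 0.91 (SE 0.19). Within WT the highest Dbp level was 1.86 times the lowest, and within TET1 KO it was 1.12 times the lowest.

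Tef (ENSMUSG00000022389, chr15:81802673-81826863, plus strand), the thyrotroph embryonic factor, was at 146, 144 and 131 CPM in WT livers and at 287, 239, 225 and 216 CPM in TET1 KO livers. Here the WT livers were the tighter group and TET1 KO replicate 1 stood highest. The means of 140 ± 7.86 CPM (SD, n = 3) and 242 ± 31.6 CPM (SD, n = 4) were 1.72-fold apart, and the log2 fold change was 0.79 (SE 0.14). Hlf (ENSMUSG00000003949, chr11:90336535-90390917, minus strand), the hepatic leukemia factor, was at 46.8, 68.8 and 57.7 CPM in WT livers and at 67.2, 53.7, 53.4 and 62.1 CPM in TET1 KO livers. All TET1 KO values of Hlf lay inside the range of the WT livers. Its log2 fold change was 0.03 (SE 0.16) and changed sign, to -0.0599, with scaling by library size only.

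Among the Period genes, which encode the inhibitors that close the loop, Per2 and Per3 were higher in all TET1 KO livers, and Per1 overlapped. Per1 (ENSMUSG00000020893, chr11:69095108-69109965, plus strand), which also answers quickly to hormonal and other signals, was at 18.4, 33.9 and 36.9 CPM in WT livers and at 41.5, 19.2, 29.9 and 42.5 CPM in TET1 KO livers. One liver of each genotype was low, WT replicate 1 and TET1 KO replicate 2. The log2 fold change of 0.16 (SE 0.29) was smaller than its error, and it became -0.10 without WT replicate 1.

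Per2 (ENSMUSG00000055866, chr1:91415977-91459351, minus strand) was at 38.7, 36.3 and 41.5 CPM in WT livers and at 110, 47.2, 84.4 and 76.7 CPM in TET1 KO livers. WT livers were nearly level, and among TET1 KO livers replicate 2 came close to them while replicate 1 was far above. The means were 38.8 ± 2.62 CPM (SD, n = 3) and 79.5 ± 25.8 CPM (SD, n = 4), 2.05-fold apart, with a log2 fold change of 1.03 (SE 0.23), just outside the limit for a call. Per3 (ENSMUSG00000028957, chr4:150997018-151044707, minus strand) was at 30.3, 25.3 and 23.6 CPM in WT livers and at 67.1, 61.1, 51.4 and 49.7 CPM in TET1 KO livers. Both groups were compact and well apart. The means of 26.4 ± 3.48 CPM (SD, n = 3) and 57.3 ± 8.24 CPM (SD, n = 4) were 2.17-fold apart, and the log2 fold change was 1.12 (SE 0.15).

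The Nr1d genes encode REV-ERBα and REV-ERBβ, the heme-binding repressors of Arntl, and neither separated the genotypes. Nr1d1 (ENSMUSG00000020889, chr11:98767932-98775377, minus strand) was at 121, 82.7 and 90.0 CPM in WT livers and at 61.6, 146, 116 and 95.1 CPM in TET1 KO livers. Both the lowest and the highest of the 7 livers were TET1 KO, replicates 1 and 2. The log2 fold change of 0.10 (SE 0.25) changed sign with scaling by library size only (-0.0026), without WT replicate 2 (-0.02) and without TET1 KO replicate 2 (-0.12). Nr1d2 (ENSMUSG00000021775, chr14:18204056-18239106, minus strand) was at 73.9, 75.9 and 61.5 CPM in WT livers and at 84.3, 85.2, 82.1 and 74.2 CPM in TET1 KO livers. TET1 KO replicate 4 lay inside the range of the WT livers and the other TET1 KO livers above it. The log2 fold change was 0.21 (SE 0.13).

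Ciart and Bhlhe41 encode repressors of CLOCK and BMAL1 activity, and their mean levels were higher in TET1 KO livers, with overlap of the groups for Ciart and none for Bhlhe41. Ciart (ENSMUSG00000038550, chr3:95878500-95882257, minus strand), also known as Chrono, was at 5.32, 8.87 and 9.49 CPM in WT livers and at 28.9, 9.02, 10.4 and 17.9 CPM in TET1 KO livers. TET1 KO replicate 2 fell inside the range of the WT livers, and replicate 3 was just above it, below replicates 4 and 1. Its mean was 2.09-fold higher in TET1 KO livers (16.5 ± 9.10 CPM, SD, n = 4, against 7.89 ± 2.25 CPM, SD, n = 3), and its log2 fold change of 1.07 had the largest error of the set (SE 0.38). Bhlhe41 (ENSMUSG00000030256, chr6:145858243-145865420, minus strand), or DEC2, an E-box binding repressor, was at 2.02, 1.12 and 2.48 CPM in WT livers and at 7.39, 6.97, 3.78 and 4.13 CPM in TET1 KO livers. The TET1 KO livers fell into a higher and a lower pair, all above WT. The means of 1.87 ± 0.693 CPM (SD, n = 3) and 5.57 ± 1.87 CPM (SD, n = 4) were 2.97-fold apart, and the log2 fold change of 1.58 (SE 0.34) was the largest of the 10.

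Reads could be shared with an overlapping gene for some of these, since the library was strand-specific but the strand setting of the counting is not stated. Dbp overlaps Sphk2, on the opposite strand, over 741 bases, and Sphk2 ranged from 28.8 to 32.7 CPM in WT livers and from 30.5 to 40.9 CPM in TET1 KO livers. Its fitted log2 fold change was 0.23 (SE 0.14, adjusted p = 0.304 by edgeR). Nr1d1 overlaps the thyroid hormone receptor gene Thra, also on the opposite strand, over 1075 bases, and Thra had a log2 fold change of -0.18 (SE 0.17, adjusted p = 0.521). Gm35591, a long non-coding RNA gene that RefSeq places over 14768 bases of Per2, was not analysed here. Uts2, inside Per3, had no counts in any library, and C920021L13Rik, across Ciart, stayed at or below 1.69 CPM.

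Per length, Dbp was the most abundant of the 10 mRNAs in both genotypes. Levels per kilobase of exon, with exon lengths from GENCODE M1, ran in WT livers from Dbp (39.1 CPM per kb) through Nr1d1 (31.3), Tef (17.8), Nr1d2 (14.1), Hlf (8.90), Per2 (6.65), Per1 (5.28), Ciart (3.49) and Per3 (2.75) to Bhlhe41 (0.299). Neighbours in that order whose WT values overlapped were Dbp and Nr1d1, Per2 and Per1, Per1 and Ciart, and Ciart and Per3. In TET1 KO livers Dbp stood at 73.3 CPM per kb, clear of Nr1d1 at 33.5, and Nr1d1 overlapped Tef at 30.7. Nr1d2 (16.3), Per2 (13.6), Hlf (9.10), Ciart (7.31), Per3 (5.97) and Per1 (5.91) then formed a run in which each overlapped the next, and Bhlhe41 (0.889) was again lowest.

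**Figure D2:**
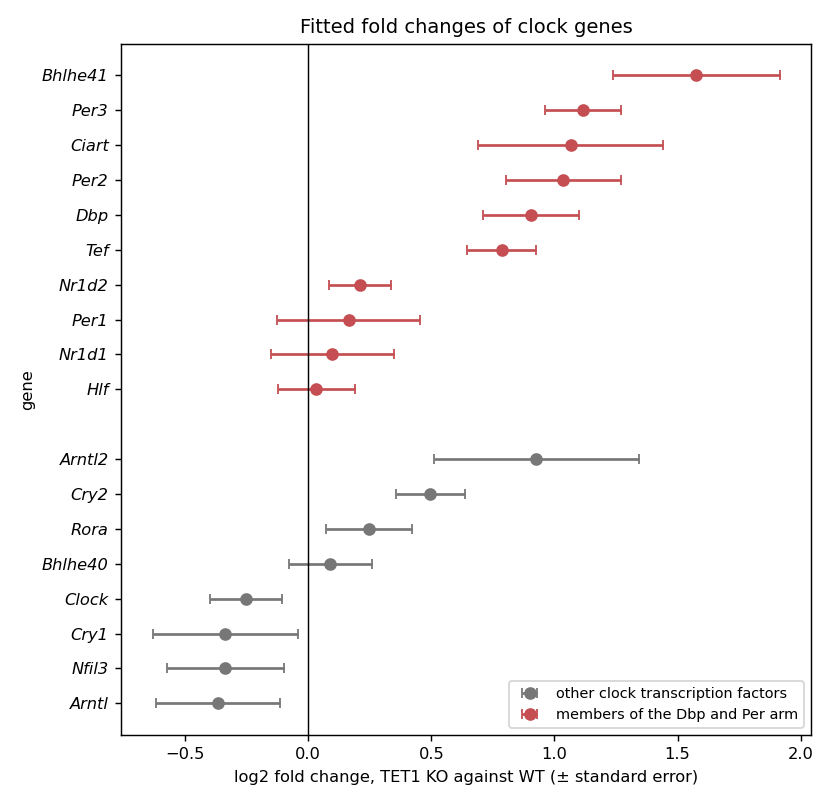
Fitted log2 fold changes of TET1 KO against WT livers with their standard errors, for the 10 clock genes and for 8 of the 9 tested genes among the other clock transcription factors. Dbp, Tef, Per2, Per3, Ciart and Bhlhe41 lie between 0.79 and 1.58. Of the other factors, Arntl2 (0.93), Cry2 (0.50), Rora (0.25) and Bhlhe40 (0.09) lie above 0. Arntl, Clock, Cry1 and Nfil3 lie below 0, and edgeR called none of these other factors.

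The other clock transcription factors, 11 genes fixed as a list of their own, were tested for the same contrast, and 9 passed the filter. By edgeR's quasi-likelihood test 0 of the 9 were called in either direction, 3 had an unadjusted p under 0.05, among them Cry2 and Arntl2, and DESeq2 called 1 higher, Cry2. The groups did not overlap for these 3, all higher, beside 11.7% of all tested genes, and the median log2 fold change of the 9 was 0.09. Arntl, the gene of BMAL1, was at 2.66, 2.24 and 1.82 CPM in WT livers and at 1.44, 1.62, 2.10 and 1.76 CPM in TET1 KO livers. These overlapped, and the fitted log2 fold change was -0.37 (SE 0.25, adjusted p = 0.363). Clock, the gene of its partner, had a log2 fold change of -0.25 (SE 0.15, adjusted p = 0.287). Npas2, which can take the place of CLOCK, did not pass the filter and had between 0 and 17 counts, the highest in WT replicate 1.

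The Cryptochrome genes, whose proteins act together with PER, differed in sign. Cry1 had a log2 fold change of -0.34 (SE 0.30, adjusted p = 0.481) and Cry2 one of 0.50 (SE 0.14, adjusted p = 0.0778), with Cry2 at 25.9, 26.1 and 23.6 CPM in WT livers and at 39.0, 36.8, 37.6 and 29.0 CPM in TET1 KO livers. Every TET1 KO liver was thus above every WT liver for Cry2. Nfil3, which encodes a repressor that competes for D-boxes, had a log2 fold change of -0.34 (SE 0.24, adjusted p = 0.375). Bhlhe40, the closest relative of Bhlhe41, had one of 0.09 (SE 0.17, adjusted p = 0.755), which became -0.0631 without WT replicate 1. All these adjusted p are from edgeR's quasi-likelihood test.

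Of 11 genes for kinases, a phosphatase and ubiquitin ligases of the clock, 0 were called by edgeR, 2 had an unadjusted p under 0.05 and DESeq2 called 1, lower, which was Ppp1cb. Their median log2 fold change was -0.02. Of 8 genes listed as E-box outputs, whose promoters were not searched here, 1 was called, lower, beside 1.15% of all tested genes. An unadjusted p under 0.05 was reached by 4 of the 8, with both signs. The called gene was Cdkn1a, the cell cycle inhibitor p21, at 7.48, 13.1 and 10.9 CPM in WT livers and at 0.751, 2.40, 1.69 and 3.29 CPM in TET1 KO livers, with no overlap. Its log2 fold change was -2.35 (SE 0.36, adjusted p = 0.0132 by edgeR), and the call was lost without WT replicate 2 and without TET1 KO replicate 3. The median of the 8 was 0.02.

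Among 11 liver genes known as outputs of the PAR bZIP factors, 0 were called by edgeR. An unadjusted p under 0.05 was found for 5 of them, with both signs. The fitted log2 fold changes of the 11 ran from -1.97 to 0.72, with 6 above 0 and 5 below. DESeq2 called 2 higher (beside 4.27% of all genes by that test), Nr1i3 (the xenobiotic receptor CAR) and Ces2a (a carboxylesterase). These were also the 2 genes of the list in which every TET1 KO liver was above every WT liver (11.7% of all tested genes), and the median log2 fold change was 0.06. Among 10 genes that respond to glucocorticoids, 0 were called by edgeR, 2 had an unadjusted p under 0.05 and DESeq2 called 1 higher, Klf9, with a median of 0.21. Among 9 genes that respond to temperature, 0 were called by edgeR, 1 had an unadjusted p under 0.05 and DESeq2 called 1 higher, Hsp90aa1, with a median of 0.20. Both kinds of signal can set clock gene levels in liver. Ppp1cb, Nr1i3, Ces2a, Klf9, Hsp90aa1, Arntl2, Rora, Krt19, Adipoq and Plin1 were named after their values were seen.

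The spread between mice of one genotype was not used to choose the genes. It was taken as the SD of log2 CPM around the genotype means over the 7 mice, and it differed widely within the set. Ciart (SD 0.66), Per1 (0.54) and Bhlhe41 (0.52) were above 92.5%, 87.0% and 85.7% of all tested genes, and Nr1d1 (0.45) and Per2 (0.40) above 79.7% and 74.7%. In contrast, Tef (0.15) and Nr1d2 (0.13) were above 15.7% and 9.40% of genes only, with Per3 at 30.8%, Hlf at 37.2% and Dbp at 57.7%. The median SD of the 10 was 0.35, beside 0.26 for all tested genes, and 6 of the 10 were above the latter. Bhlhe41 had between 27 and 118 counts, and the share of counting error in its spread was not tested.

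**Figure D3:**
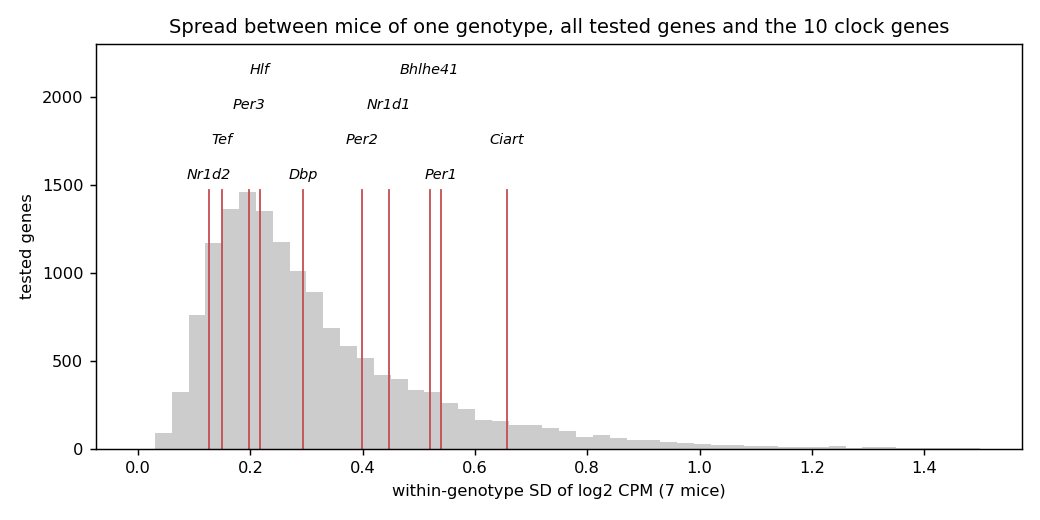
Within-genotype SD of log2 CPM over 7 mice, as a histogram of the tested genes (bins of 0.03, with 34 genes at 1.5 or more not drawn) and red lines for the 10 clock genes. Nr1d2 and Tef lie at the low end and Ciart, Per1 and Bhlhe41 in the upper tail.

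Within a genotype the 10 genes did not move as a block. Over the 45 pairs of genes, the correlation of the deviations from the genotype means over 7 mice had a median of 0.02 and ranged from -0.97 to 0.87, and 24 pairs were positive. Among every 10th tested gene the median was -0.0017. The value depended on 1 liver, as the median of the 45 pairs was -0.30 without TET1 KO replicate 1, which was above its genotype mean for 9 of the 10 genes. That liver was the highest TET1 KO liver for Tef, Hlf, Per2, Per3, Ciart and Bhlhe41 and the lowest for Nr1d1. TET1 KO replicate 2 was highest for Dbp, Nr1d1 and Nr1d2 and lowest for Per1, Per2 and Ciart.

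**Figure D4:**
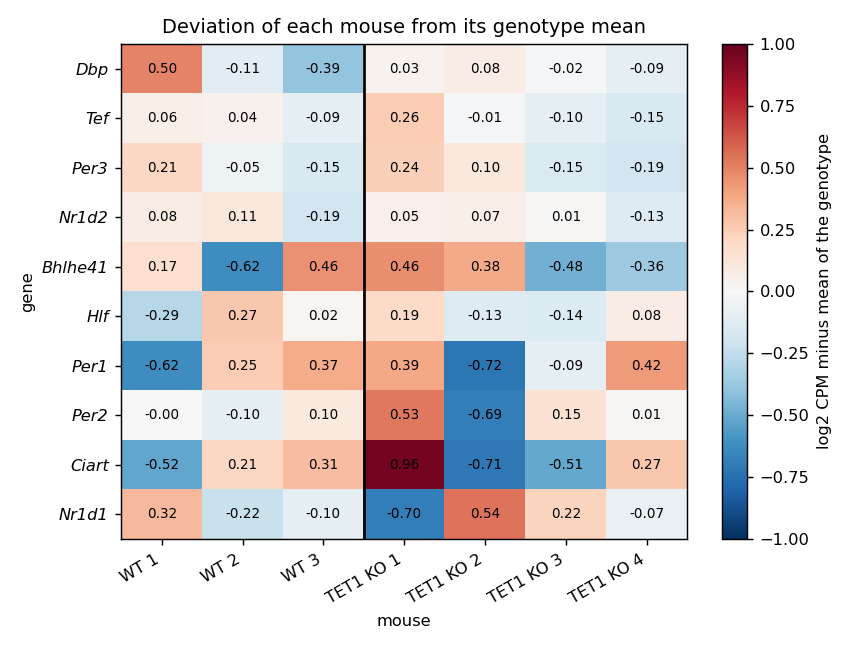
Deviation of each mouse from the mean of its genotype in log2 CPM, for the 10 clock genes (rows) in 7 livers (columns, with a line between WT and TET1 KO), red above and blue below the mean. Ciart is at 0.96 and Nr1d1 at -0.70 in TET1 KO replicate 1, and the signs are opposite in TET1 KO replicate 2, at -0.71 and 0.54.

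Several pairs moved together or against each other across both genotypes. Nr1d1 and Ciart were the most opposed pair, with Pearson's r = -0.97 (p = 0.0139) and Spearman's rho = -0.89 (p = 0.0417) over n = 7 mice by exact two-sided permutation within genotype. Among TET1 KO livers the order of Ciart, with replicate 1 highest, then 4, 3 and 2, was the reverse of that of Nr1d1. Without the 2 livers farthest from the median of Nr1d1, TET1 KO replicates 1 and 2, r was -0.94. Nr1d1 also ran against Hlf (r = -0.82, p = 0.0139, rho = -0.82, p = 0.0417, exact permutation, n = 7, and r = -0.94 without WT replicates 1 and 2).

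Tef and Per3 ran in parallel, with r = 0.86 (p = 0.00694) and rho = 0.93 (p = 0.0139) by the exact permutation test over n = 7 mice, and r = 0.79 without TET1 KO replicates 1 and 4. Both had the same order of mice in each genotype. Per1 and Ciart also ran in parallel (r = 0.87, p = 0.0347, rho = 0.89, p = 0.0417, exact permutation, n = 7, and r = 0.83 without TET1 KO replicate 2 and WT replicate 1). The 144 orders within genotype allow no p below 0.00694, and after adjustment over the 45 pairs by Benjamini-Hochberg none of these was under 0.05, with adjusted p of 0.188 for r in Nr1d1 with Ciart, Nr1d1 with Hlf and Tef with Per3 and of 0.223 in Per1 with Ciart, and of 0.469 for rho in all of them (exact permutation). These pairs were picked from the 45 after their values were seen.

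**Figure D5:**
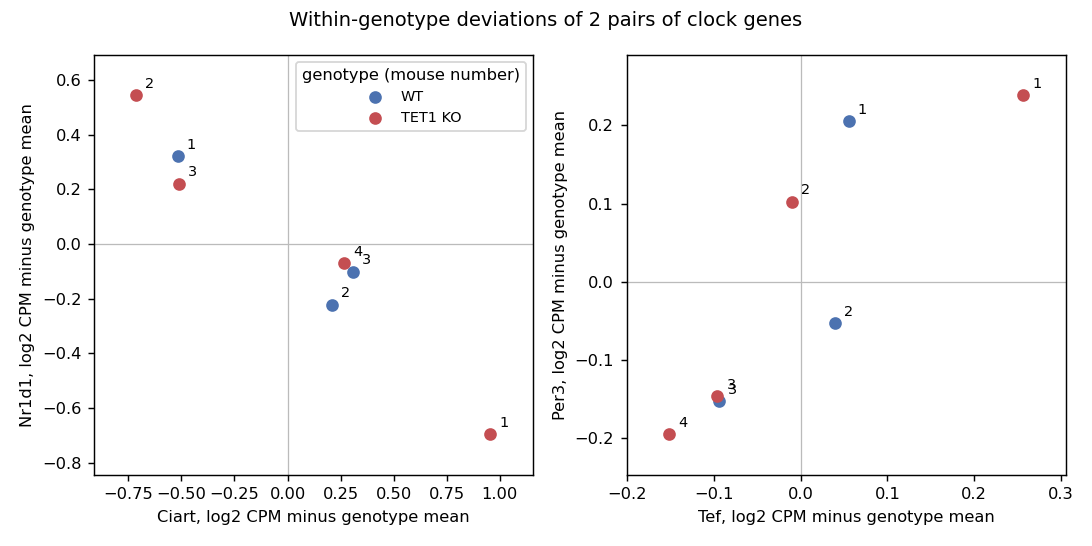
Deviations from the genotype mean in log2 CPM of Nr1d1 against Ciart (left) and Per3 against Tef (right), with 1 point per liver numbered by replicate. Nr1d1 falls as Ciart rises over the 7 livers (r = -0.97), and Per3 rises with Tef (r = 0.86).

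Against the mean of the other 9 genes within genotype, Tef followed most closely (r = 0.95) and Per3 next (r = 0.67), and Nr1d1 ran opposite (r = -0.77), over the same 7 mice. The mean standardised deviation of the 10 genes was 0.72 in TET1 KO replicate 1 and between -0.30 and 0.15 in the other 6 livers, so that a gene like it is a gene that stands out in that liver. Over the 13187 genes with a mean of at least 1 CPM, those most like it within genotype were Ptp4a2 (r = 0.995), Rab9 (0.994), Tbx2 (0.99), Pms2 (0.988) and Gm28151 (0.986), and those most opposite were Eif4a3 (-0.994), Mrps18c (-0.992) and Gimd1 (-0.992), over 7 mice. None of these 8 was among the 8 picked when the genotype means were kept. Of the other clock transcription factors, Rora had an r of 0.89 with it, and Clock (r = -0.68) and Nfil3 (r = -0.64) were most opposite, with Arntl at -0.34.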

How the data were processed

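Liver RNA of 3 WT and 4 TET1 KO mice was analysed. The authors deposited raw read counts per gene and mouse, made with featureCounts 1.5.3, and the submitters' processing notes also name Trimmomatic 0.36, GSNAP and GRCm38. Of 51431 entries per table, 5 repeated an identifier and were left out, and tables were joined by Ensembl identifier because 26 symbols differed between them. Genes were filtered by filterByExpr, scaled by TMM and compared by the quasi-likelihood test of edgeR 4.0.16 in R 4.3.3, with no covariate and adjustment by Benjamini-Hochberg over 14754 genes, and called at an adjusted p under 0.05. DESeq2 1.42.0 was the alternative. Log2 CPM used a prior count of 2, and exact permutations were made within genotype. The scripts were tested on simulated data. Replicates are mice by label.

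The clock genes, the gene lists, the tests and the rule for the names were chosen with earlier results of these data known. Named by that rule were the 10 genes, called genes of the lists, 8 fixed clock genes (1 of which is not reported here), overlapping genes, Tet1 to Tet3, and the 5 most and 3 least similar genes; 10 others were named after their values were seen. Promoters and coordinates are from RefSeq (GRCm38.p6) and exon lengths from GENCODE M1. The alternatives were DESeq2, other scalings, filters and dispersions, the replicate block, and leaving out each mouse. Python 3.11 with matplotlib 3.10.9 made the figures. Protein sequences and the promoter of Per2 were not analysed here.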

Additional observations from a re-analysis of the deposited data

Results flagged for a closer look

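In 4 TET1 KO livers, a gap between the most extreme liver and the next that takes more of the whole range than Dixon's limit for 4 values was looked for in 28 named genes and 13 gene lists, where chance passes about 1 in 20. It was met by 7 genes and 3 lists, none of them among the 10 clock genes. TET1 KO replicate 4 stood low for Tet3 (gap 0.833 of the range). TET1 KO replicate 1 stood apart for Ptp4a2 (0.895), Rab9 (0.913), Tbx2 (0.956), Pms2 (0.859), Gm28151 (0.890) and Gimd1 (0.897), which were picked for likeness, or its opposite, to a profile in which that liver is highest. It was also highest for the summed level of the other clock transcription factors (0.895, 389 CPM). TET1 KO replicate 4 was highest for the summed PAR bZIP output genes (0.971, 2948 CPM). TET1 KO replicate 2 was highest for the summed adipocyte markers (0.991, 23.0 CPM). The causes were not tested.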

How the results depend on the processing

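The median log2 fold change of the 10 clock genes stayed between 0.68 and 0.89 over 14 alternatives, and their count of calls between 0 and 6. DESeq2 called 628 genes higher and 698 lower in all, no filter on low counts gave 245 and 347, and library size only 312 lower. With the replicate block these counts were 670 and 656, but same-numbered mice did not deviate together (correlations of 0.209, -0.123 and -0.0964), so the numbers were not taken as pairs. Leaving out a mouse gave 16 (without WT replicate 2) to 427 (without TET1 KO replicate 4) higher and 22 to 464 lower genes, and 0 to 5 called clock genes. Of the lists, DESeq2 called 1 clock transcription factor, 1 glucocorticoid and 1 temperature gene and 2 PAR bZIP outputs higher and 1 kinase or phosphatase gene lower. The replicate block called 1 higher in each of these 5 lists, and 1 kinase or phosphatase gene and 1 PAR bZIP output lower. No filter on low counts called 1 PAR bZIP output lower. Leaving out a mouse gave 0 to 1 clock transcription factor and glucocorticoid gene higher, 0 to 1 E-box output and 0 to 2 PAR bZIP outputs lower. Signs turned for Hlf (-0.0599 with library size only, -0.11 to 0.17 without 1 mouse), Nr1d1 (-0.0026 with library size only, -0.12 to 0.28 without 1 mouse) and, without 1 mouse, Per1 (-0.10 to 0.34) and Bhlhe40 (-0.0631 to 0.27). The median correlation of the clock genes ranged from -0.30 (without TET1 KO replicate 1) to 0.14. The causes were not tested. Depth limits the genes with few counts, such as Bhlhe41 with 27 to 118. With 3 and 4 mice and no collection time given, rhythms, phase and amplitude cannot be measured.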
